A study of Mus musculus with 6 samples.

Results

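Aminoacyl-tRNA synthetases are the enzymes that load each amino acid onto its transfer RNA. Of the 22556 genes in the expression table of this mouse heart series, 36 synthetase genes were taken by symbol from a list. The list held 20 genes of cytosolic enzymes and 16 genes of mitochondrial enzymes, whose symbols end in 2. All 36 symbols were present, and all 36 reached the mean of 1 RPKM (reads per length of transcript and per mapped reads of its library) required for testing, as did 11096 genes in all. The hearts came from wild-type mice that carried a subcutaneous osmotic minipump with angiotensin II (Ang II), a hormone that raises blood pressure, at 1000 ng per kg per min. Hearts were taken after 7 days or 28 days, while controls are labelled 0 days. There were 3 groups with 2 libraries in each. Strain, age and sex are not labelled. The same dose is listed for the 0 day controls, and nothing else says how the controls were treated. Nor does anything say that both libraries of a group came from separate mice. The p-values then measure only the spread between libraries, and that spread may be technical.

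A synthetase activates its amino acid with ATP and transfers it to the matching tRNA, so the charged tRNA pool that feeds the ribosome depends on this family. Mitochondria translate their own small set of respiratory chain proteins and use a separate set of nuclear-encoded synthetases, except that Gars and Kars each encode both forms of their enzyme. Several cytosolic synthetases sit in a multisynthetase complex held together by the scaffold proteins of Aimp1, Aimp2 and Eef1e1, and the others act outside it. Many cytosolic synthetase genes are known targets of ATF4, the transcription factor made when amino acids run short or when the initiation factor eIF2 is phosphorylated. The heart depends heavily on mitochondria, and cytosolic protein synthesis is known to rise when heart muscle grows under load.

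Relative depth, read from the steps of the low values, lay between 0.89 and 1.17 times that of control replicate 1. The log2 ratio between replicates had an SD over the 36 genes of 0.15 among controls, and of 0.28 after both 7 and 28 days. Cardiomyocyte markers (Myh6, Tnnt2, Actc1, Myl2, Tnni3, Ryr2 and Pln) summed to between 34000 and 45700 RPKM in every library. The 5 T and B cell markers summed to at most 0.702 RPKM. The libraries differed in atrial markers. Myl7, an atrial myosin light chain, was at 52.5 and 646 RPKM in the controls, 41.2 and 66.2 at 7 days, and 341 and 182 at 28 days. Myl4 and Sln were likewise low in control replicate 1 and both 7 day libraries. Nppa, which also responds to load, was at 215 RPKM in control replicate 1 and between 1605 and 3040 RPKM in the other 5 libraries. The part of atrial tissue in the results was not tested.

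All but the lowest synthetase genes were measured well above 1 RPKM, and RPKM values, being per length, allow levels to be compared between genes. The median control level was 13.6 RPKM for the cytosolic genes and 6.67 RPKM for the mitochondrial genes, against 6.23 RPKM for all tested genes. Kars, which charges lysine in both compartments, had the highest mean of the cytosolic genes. It was at 47.8 and 49.8 RPKM in the controls, 52.9 and 47.4 at 7 days, and 52.3 and 51.5 at 28 days. Nars and Dars, for asparagine and aspartate, came next at means of 27.3 and 25.4 RPKM over the 6 libraries. Cars, for cysteine, was the lowest cytosolic gene at 5.38 RPKM. Of the mitochondrial genes, Lars2, Iars2 and Fars2, for leucine, isoleucine and phenylalanine, had the highest means, at 37.8, 27.4 and 24.4 RPKM. Iars2 was at 26.9 and 28.6 RPKM in the controls, 27.6 and 30.2 at 7 days, and 27.0 and 24.1 at 28 days. Fars2 was at 24.4 and 24.0 RPKM in the controls, 26.0 and 21.7 at 7 days, and 25.8 and 24.5 at 28 days. Pars2 and Wars2, for proline and tryptophan, were the lowest, at 1.64 and 1.6 RPKM.

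**Figure D1:**
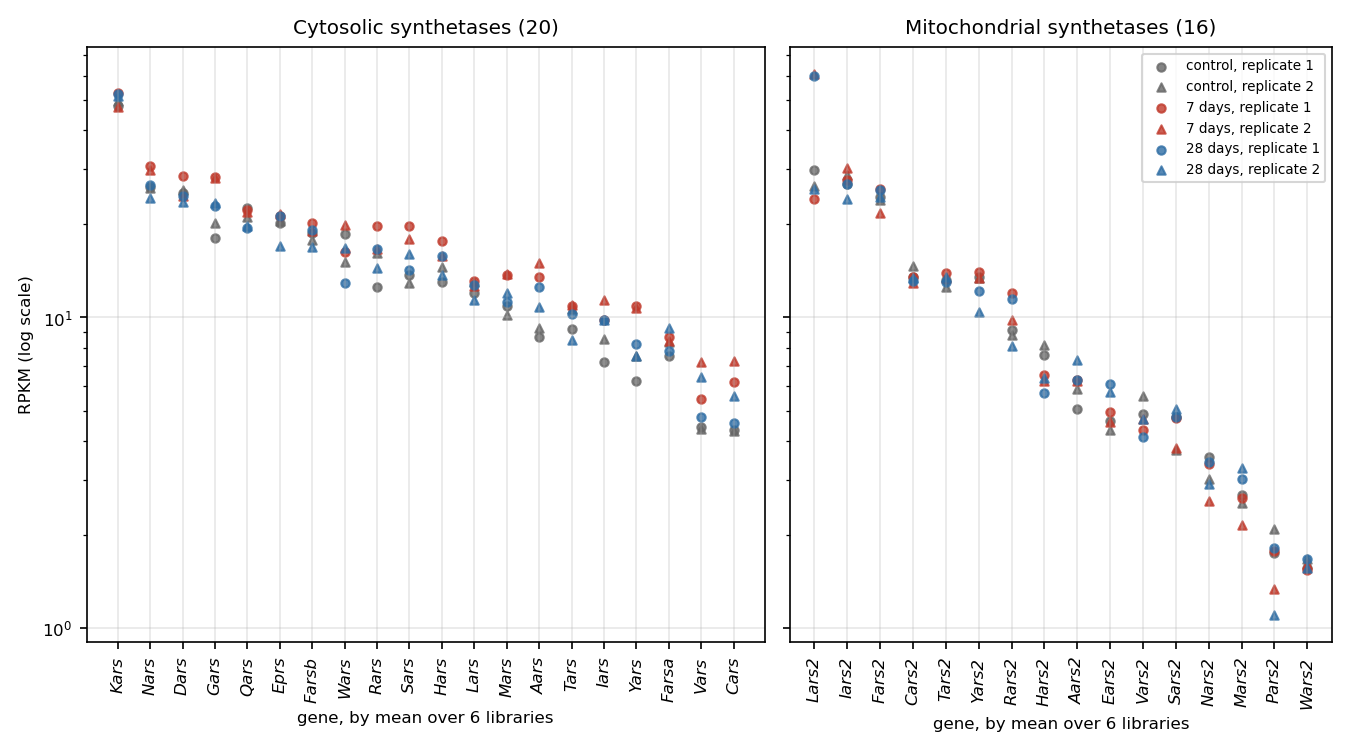
RPKM on a log scale of the 20 cytosolic and 16 mitochondrial synthetase genes, ordered by their mean over 6 libraries, with 1 point per library. Kars lies highest among the cytosolic genes at 47.4 to 52.9 RPKM, and Lars2 spreads from 24.1 to 60.7 RPKM.

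The first comparison set the 7 day hearts against the controls. In limma, 5 of the 20 cytosolic genes rose, namely Aars, Yars, Cars, Gars and Sars, and none fell (adjusted p under 0.05 over all tested genes). Over all tested genes, 13.2% were called higher and 2.27% lower in this comparison. Of all 36 synthetase genes 5 were called higher and 0 lower, which lies near those shares. None of the 16 mitochondrial genes was called by limma, with 0 higher and 1 lower at unadjusted p under 0.05, against 26.5% and 5.66% of all tested genes. A fold change here is a difference of log2(RPKM + 0.5), and the 5 genes rose by between 0.48 and 0.64 on that scale.

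Aars, which charges alanine, was at 8.64 and 9.28 RPKM in the controls and at 13.5 and 14.97 RPKM after 7 days. Both 7 day libraries lay above both controls, and the mean went from 8.96 ± 0.456 to 14.2 ± 1.04 RPKM (SD, n = 2; log2 difference 0.64, SE 0.12; limma adjusted p = 0.0155). Yars, for tyrosine, was at 6.23 and 7.53 RPKM in the controls and at 10.9 and 10.8 RPKM at 7 days. The controls differed from each other more than the 7 day libraries did, and the groups did not overlap (log2 difference 0.62, SE 0.12; limma adjusted p = 0.0187). Cars was at 4.34 and 4.32 RPKM in the controls and at 6.19 and 7.26 RPKM at 7 days. It was the lowest in level of the 5 genes (log2 difference 0.58, SE 0.14; limma adjusted p = 0.0335). Gars, for glycine in both compartments, was at 18.1 and 20.1 RPKM in the controls and at 28.3 and 28.1 RPKM at 7 days. It was the highest in level of the 5, with 7 day libraries that nearly coincided (log2 difference 0.56, SE 0.10; limma adjusted p = 0.0138). Sars, for serine, was at 13.7 and 12.95 RPKM in the controls and at 19.7 and 17.9 RPKM at 7 days, again with no overlap (log2 difference 0.48, SE 0.11; limma adjusted p = 0.0316).

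The 3 cytosolic genes next in size did not pass, and are given here after their values were seen. Vars, for valine, was at 4.46 and 4.39 RPKM in the controls and at 5.47 and 7.22 RPKM at 7 days (limma adjusted p = 0.121). Its 7 day libraries lay far apart. Iars, for isoleucine, was at 7.21 and 8.55 RPKM against 9.85 and 11.3 RPKM (log2 difference 0.41; limma adjusted p = 0.0718). Mars, for methionine, was at 10.9 and 10.2 RPKM against 13.7 and 13.8 RPKM (log2 difference 0.37; limma adjusted p = 0.0514). Mars passed when the 2 groups were fitted alone (limma adjusted p = 0.042) and with a mean RPKM of at least 5 (limma adjusted p = 0.0429). It did not pass after median ratio scaling (log2 difference 0.22; limma adjusted p = 0.209) or quantile normalization (log2 difference 0.20; limma adjusted p = 0.228). With the replicate number as a block it did not pass either (limma adjusted p = 0.0798).

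At the other end, several cytosolic genes differed little from the controls. Qars, for glutamine, was at 22.5 and 21.0 RPKM in the controls and at 22.1 and 21.9 RPKM at 7 days. Its log2 difference of 0.02 had an SE of 0.10, the smallest difference of the 20. Lars and Kars had log2 differences of 0.04 each, with SEs of 0.11 and 0.10. Lars, for leucine, was at 12 and 13.1 RPKM in the controls and at 13.1 and 12.6 RPKM at 7 days. Dars, Eprs, Farsb, Farsa and Wars lay between 0.06 and 0.10, and Tars, Nars, Hars and Rars between 0.14 and 0.34. Eprs encodes a joined enzyme for glutamate and proline, and Farsa and Farsb encode both subunits of the phenylalanine enzyme.

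**Figure D2:**
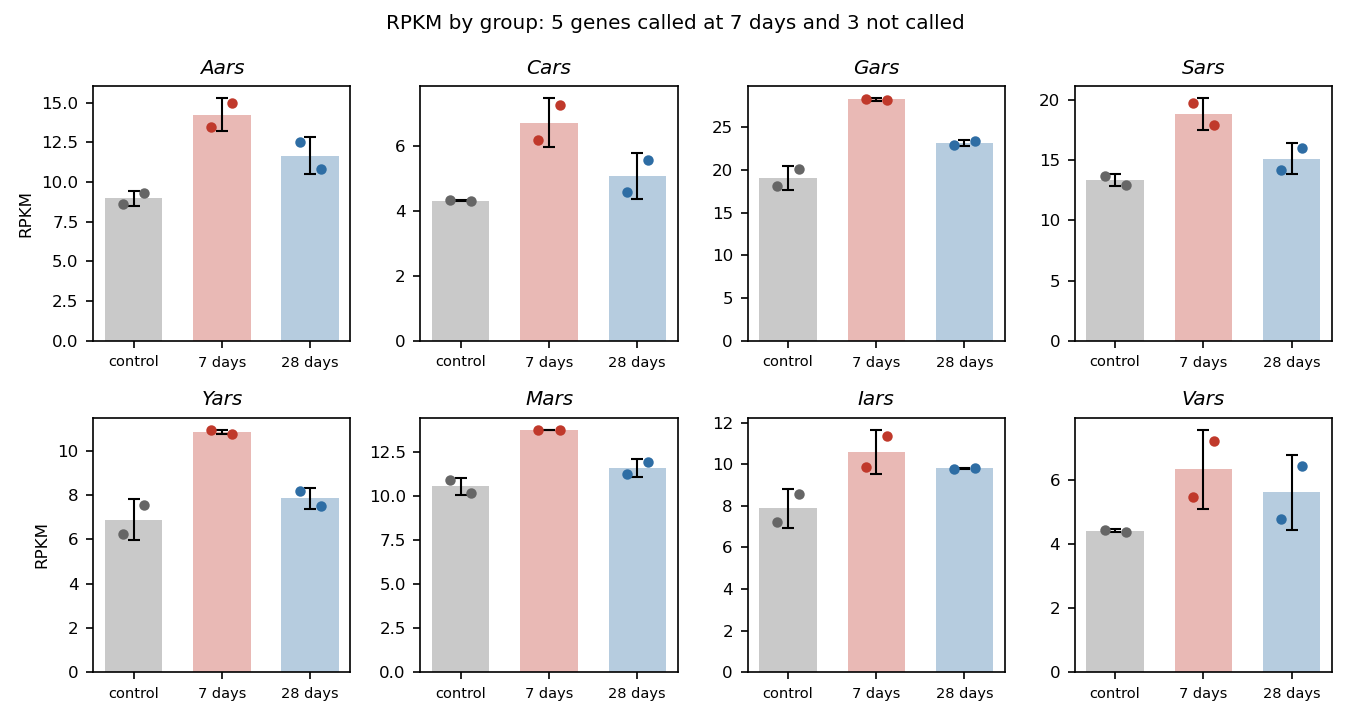
RPKM by group for the 5 cytosolic genes called at 7 days and the 3 next in size, with bars at the mean, error bars of 1 SD (n = 2) and 1 point per library. In Aars, Cars, Gars, Sars and Yars both 7 day libraries lie above both controls, and the 28 day means lie between the other groups.

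The scale of the libraries matters for these small differences. The median difference of all tested genes at 7 days was 0.14 as deposited, and -0.01 after median ratio scaling. As deposited all 20 cytosolic genes lay above 0, but only 11 of them lay above the median of all genes, and 11 of 20 lay above 0 after either median ratio scaling or quantile normalization. The libraries of 15 of the 20 cytosolic genes did not overlap and were higher at 7 days, against 48.6% of all tested genes. In the mitochondrial genes 3 of 16 were so higher and 3 lower, against 48.6% and 16.1%. The median cytosolic difference was 0.23, or 0.10 above the median of all genes. After median ratio scaling 1 cytosolic gene, Gars, remained called (log2 difference 0.40; limma adjusted p = 0.041). Aars and Yars then had limma adjusted p = 0.0522 and 0.0535, and Cars and Sars 0.0838 and 0.0957. With 2 libraries a group, leaving out control replicate 1 or 7 day replicate 2 left 0 calls, leaving out control replicate 2 left only Yars, and leaving out 7 day replicate 1 left only Aars. The log2 differences of the 5 genes then ranged from 0.41 to 0.75.

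The calls can be set against the known roles of the enzymes. Of the 8 cytosolic synthetases that belong to the multisynthetase complex (Dars, Eprs, Iars, Kars, Lars, Mars, Qars and Rars), 0 were called by limma at 7 days, with 2 higher at unadjusted p under 0.05. Their median difference was 0.07, below that of all genes. Of the 12 enzymes outside the complex, 5 rose and the median was 0.36. Of the 12 synthetase genes listed as known ATF4 targets, 5 rose, with a median of 0.39. Of the 8 cytosolic genes not so listed, 0 were called by limma, 1 was higher at unadjusted p under 0.05, and the median was 0.10. Over all tested genes, 13.2% were called higher at 7 days and 26.5% were higher at unadjusted p under 0.05. The 0 of 8 and 2 of 8 in the complex lie near those shares. The subsets overlap, and no test of the difference between them was made. The 2 structural classes of synthetases, which fold in unrelated ways, held calls alike in number: 2 of 18 class I genes and 3 of 17 class II genes rose, with medians of 0.09 and 0.10. Eprs, which joins a domain of each class, was left out of that split.

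ATF4 binds with C/EBP proteins to a composite element, searched here as the letters TGATGNAA on both strands of a promoter window of 250 bases before to 50 bases after the start in RefSeq (build GRCm38.p6). Windows were found for 13 of the 20 cytosolic genes and 14 of the 16 mitochondrial genes, and not for Cars, Hars, Lars, Nars, Rars, Vars, Wars, Hars2 and Pars2. The element was present in 5 of the 13 cytosolic genes and 0 of the 14 mitochondrial genes with a window, against 3.97% of all 32851 windows. A gene counted if any of its windows held the element, and Aars2 had 2 windows, so the units differ. The element was also present in 6 of the 19 other known ATF4 targets with a window. Sites in the cytosolic genes are shown because 3 of the 4 called genes with a window hold at least 1, and not every match is shown. Each is given 5′ to 3′ on the strand of its gene, with the element in capitals.

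Aars, chr8:111033840-111033869, plus strand: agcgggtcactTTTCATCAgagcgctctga
Gars, chr6:55037960-55037989, plus strand: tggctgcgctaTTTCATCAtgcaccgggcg
Yars, chr4:129189895-129189924, plus strand: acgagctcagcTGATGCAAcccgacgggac
Iars, chr13:49682126-49682155, plus strand: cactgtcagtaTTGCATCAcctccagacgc
Tars, chr15:11399655-11399684, minus strand: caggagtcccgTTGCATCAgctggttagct

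Yars carries the element in the direction of transcription and the other 4 sites shown carry it reversed. The sites shown for Aars, Yars and Iars lie after the start, and those for Gars and Tars before it. Aars holds another match, before the start, that is not shown. Tars holds a match with a log2 difference of 0.14 at 7 days (limma adjusted p = 0.524), and Sars, which rose, holds none in this window. The match is a description of letters and not of binding. The 250 bases before the start of Gars (chr6:55037751-55038000, plus strand) are shown to place its upstream element, in capitals, in its surroundings. Their GC content was 62.4%.

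Gars: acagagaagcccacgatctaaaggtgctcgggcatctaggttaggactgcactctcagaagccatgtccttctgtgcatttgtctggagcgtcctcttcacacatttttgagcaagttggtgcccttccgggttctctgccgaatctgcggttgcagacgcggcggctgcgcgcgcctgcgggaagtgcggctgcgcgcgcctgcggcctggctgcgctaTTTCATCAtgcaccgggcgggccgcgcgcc

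Elements known from nuclear genes for mitochondrial proteins were searched in the same windows. The NRF1 element was present in 3 of 13 cytosolic and 2 of 14 mitochondrial genes with a window, against 4.6% of all windows. The ETS core, as CCGGAAG on both strands, was present in 5 of 13 cytosolic and 4 of 14 mitochondrial genes, against 8.86% of all windows. The motifs were counted separately, whether or not they overlapped.

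The mitochondrial genes lay lower than the cytosolic ones at 7 days. Their median difference was -0.01, that is 0.14 below the median of all genes, and 3 of 16 lay above that median. Hars2, for histidine, had the lowest difference and was at 7.55 and 8.18 RPKM in the controls, 6.51 and 6.25 at 7 days, and 5.73 and 6.41 at 28 days. Both infused groups lay below both controls, with log2 differences of -0.28 at 7 days and -0.35 at 28 days that did not pass (limma adjusted p = 0.139 and 0.137). At 7 days it was called lower after median ratio scaling (log2 difference -0.43; limma adjusted p = 0.0474) and after quantile normalization (log2 difference -0.46; limma adjusted p = 0.0354). Pars2 was at 1.75 and 2.09 RPKM in the controls, 1.78 and 1.34 at 7 days, and 1.81 and 1.10 at 28 days, with overlap throughout (limma adjusted p = 0.505 at 7 days and 0.425 at 28 days). Rars2, for arginine, was at 9.12 and 8.79 RPKM in the controls, 12 and 9.79 at 7 days, and 11.5 and 8.10 at 28 days. Its 7 day libraries lay above the controls but far apart (log2 difference 0.26; limma adjusted p = 0.35).

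Lars2 had the highest mitochondrial difference at 7 days, 0.44, with an SE of 0.48 (limma adjusted p = 0.569). It was at 29.7 and 26.6 RPKM in the controls, 24.1 and 60.7 at 7 days, and 59.7 and 26.0 at 28 days. The high libraries were 7 day replicate 2 and 28 day replicate 1, so that the spread lay within the groups and not between them.

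**Figure D3:**
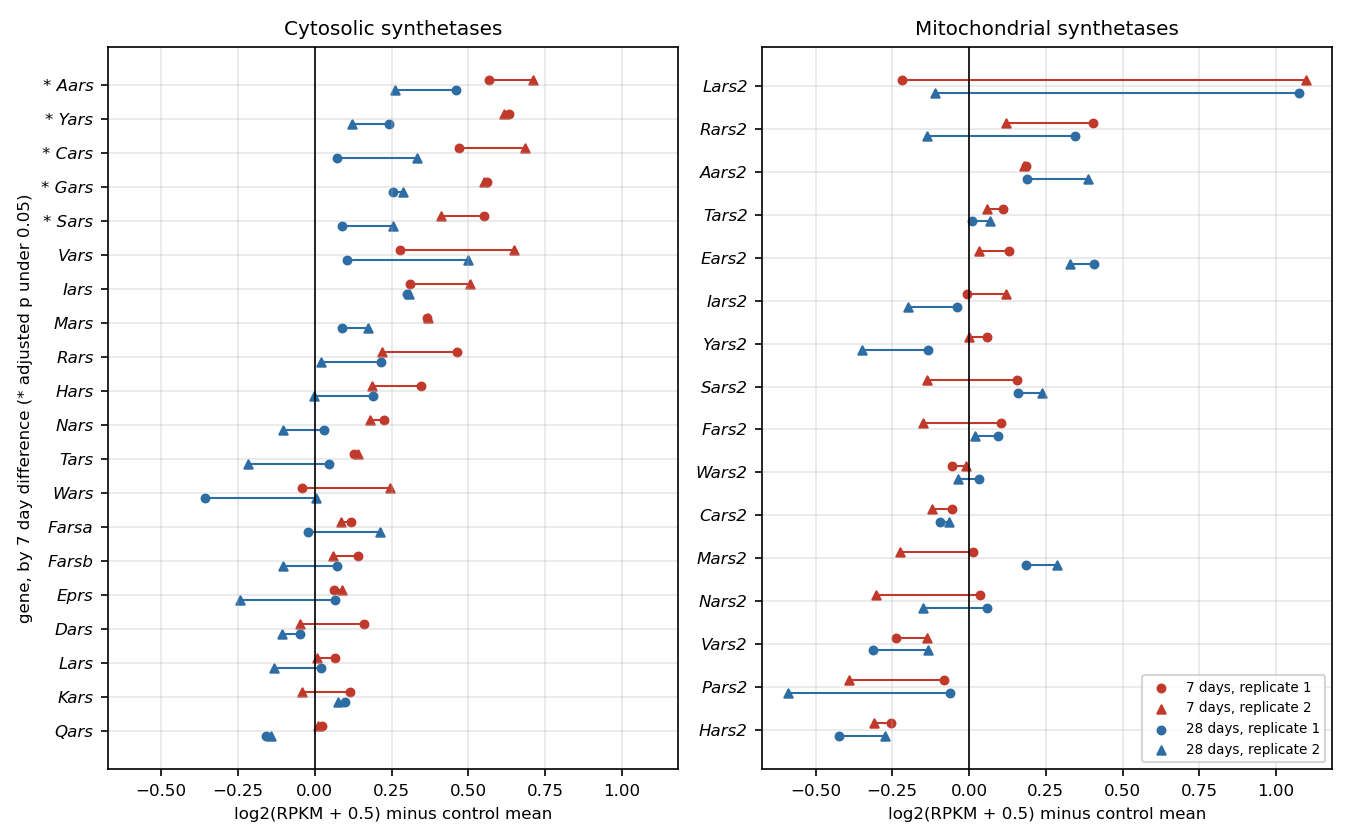
Difference of log2(RPKM + 0.5) from the control mean for each library at 7 and 28 days, for the cytosolic and the mitochondrial genes in order of the 7 day difference, with a line joining both replicates. The 5 starred cytosolic genes passed at 7 days, no mitochondrial gene did, and Lars2 differs widely between replicates at both times.

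The cytosolic genes were set against the mitochondrial gene for the same amino acid in the 13 pairs whose symbols differ only by the 2. This ratio is taken within a library, so a change of library scale leaves it as it is. At 7 days the cytosolic log2 difference was the higher one in 12 of the 13 pairs, the exception being Lars and Lars2. In 9 pairs both 7 day ratios lay above both control ratios, and in 0 pairs both lay below. No such share was computed for other pairs of genes, so these counts have no background, and the pairs are not replicates. Among single tested genes, 48.6% did not overlap and were higher at 7 days and 16.1% were lower. At 28 days the cytosolic difference was the higher one in 8 of the 13 pairs, with both ratios above both controls in 5 and below both in 1, Mars and Mars2. That ratio was 4.07 and 4.03 in the controls, 5.23 and 6.38 at 7 days, and 3.72 and 3.64 at 28 days. The ratio of Yars to Yars2 was 0.462 and 0.563 in the controls, 0.778 and 0.802 at 7 days, and 0.671 and 0.717 at 28 days. The ratio of Cars to Cars2 was 0.321 and 0.296 in the controls, 0.459 and 0.563 at 7 days, and 0.349 and 0.416 at 28 days. The ratio of Hars to Hars2 went from 1.73 and 1.78 to 2.71 and 2.52 at 7 days, with Hars2 below and Hars above its control level. Over the libraries, the cytosolic median minus the mitochondrial median, each against the control mean, was -0.03 and 0.03 in the controls, 0.23 and 0.27 at 7 days, and 0.04 and 0.14 at 28 days. Both 7 day libraries lay above the other 4. The difference of the medians was 0.24 at 7 days as deposited, and 0.22 and 0.25 after median ratio scaling and quantile normalization. Without control replicate 1 it was 0.20, and without control replicate 2 it was 0.29.

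**Figure D4:**
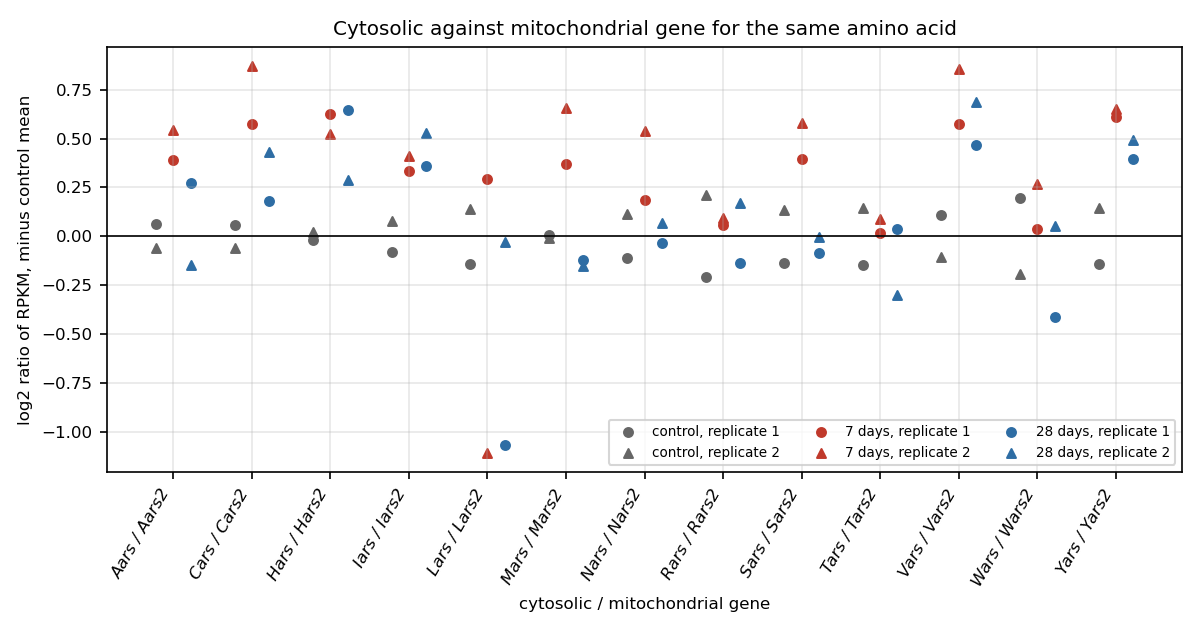
The log2 ratio of cytosolic to mitochondrial RPKM, minus its control mean, in 13 pairs of genes for the same amino acid, with 1 point per library. In 9 pairs both 7 day libraries lie above both controls, and Lars / Lars2 is low in 7 day replicate 2 and 28 day replicate 1.

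The second comparison set the 28 day hearts against the controls. None of the 36 was called by limma, where 4.41% of all tested genes were called (2.87% higher and 1.54% lower). At unadjusted p under 0.05 there were 4 higher and 1 lower, against 12.8% and 9.32% of all tested genes. Aars was at 12.5 and 10.8 RPKM, still above both controls (log2 difference 0.36; limma adjusted p = 0.142). Iars, at 9.78 and 9.83 RPKM, had the next cytosolic difference, 0.30 (limma adjusted p = 0.217). Gars was at 22.9 and 23.4 RPKM, with a log2 difference of 0.27 (limma adjusted p = 0.173). Libraries did not overlap and were higher in 8 of the 20 cytosolic genes and lower in 2, against 28.8% and 25.8% of all tested genes. The cytosolic median was 0.09 and the mitochondrial median 0.02, with 0.01 for all genes.

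The lowest cytosolic differences at 28 days were those of Wars and Qars. Wars, for tryptophan, was at 18.5 and 15.1 RPKM in the controls, 16.2 and 19.9 at 7 days, and 12.9 and 16.8 at 28 days. Its groups overlapped (log2 difference at 28 days -0.18; limma adjusted p = 0.579). Wars is known to be raised by interferon gamma. Of 13 tested genes of that response 5 fell at 28 days, with a median of -0.77, against 1.54% of all tested genes. At 7 days Cxcl10 rose and Iigp1 fell. Leaving out any 1 control ended each of these calls. Cxcl10 was below 1 RPKM in every control and 28 day library and reached the mean for testing only through the 7 day group. The part of the interferon gamma response in the level of Wars was not tested. Qars was at 19.4 and 19.7 RPKM, below both controls (log2 difference -0.15; limma adjusted p = 0.397).

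The highest mitochondrial differences at 28 days were those of Lars2, at 0.48 with the spread given above, and Ears2. Ears2 charges mitochondrial tRNA with glutamate, and also the glutamine tRNA, whose glutamate is then amidated. It was at 4.64 and 4.34 RPKM in the controls, 4.96 and 4.603 at 7 days, and 6.12 and 5.77 at 28 days. Both 28 day libraries lay above the other 4 (log2 difference from control 0.37, SE 0.11; limma adjusted p = 0.123). Qrsl1, a subunit of the amidating enzyme, was at 10.9 and 12.5 RPKM in the controls and at 12.7 and 11.9 RPKM at 28 days. The 4 genes of mitochondrial tRNA amidation and formylation held 0 calls by limma at either time and 0 at unadjusted p under 0.05. At that limit 26.5% of all tested genes were higher and 5.66% lower at 7 days, and 12.8% and 9.32% at 28 days.

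Between 28 and 7 days 0 of the 36 genes were called by limma, where 4.67% of all tested genes were called (0.406% higher and 4.26% lower). At unadjusted p under 0.05, 5 cytosolic genes and 1 mitochondrial gene were lower at 28 days, against 19.1% of all tested genes, and 2 mitochondrial genes were higher, against 3%. The log2 difference was below 0 in 19 of 20 cytosolic genes, Kars being the exception at 0.05, and in 7 of 16 mitochondrial genes. After median ratio scaling or quantile normalization, 6 of 20 cytosolic and 13 of 16 mitochondrial genes lay above 0, and the cytosolic median was -0.06 with either. The cytosolic median of -0.20 stood beside -0.12 for all genes. Cytosolic libraries did not overlap and were lower at 28 days in 12 genes, against 41.2% of all tested genes. In 4 mitochondrial genes they were higher, against 9.12%. Yars had the lowest difference, -0.44 (SE 0.12; limma adjusted p = 0.0979). Its level at 28 days, 8.19 and 7.50 RPKM, overlapped with the controls. The effect at 7 days was thus not shown to differ from that at 28 days for any of the 5 genes. Both times share the same control libraries.

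Among the partners of the synthetases, Eef1e1, a scaffold protein of the multisynthetase complex, rose at 7 days. It was at 6.69 and 6.24 RPKM in the controls, 10.8 and 9.73 at 7 days, and 10.0 and 8.87 at 28 days (limma adjusted p = 0.0155 and 0.0572). The other scaffold genes did not pass. Aimp1 was at 45.8 and 41.4 RPKM in the controls and 49.5 and 41.4 at 7 days, and Aimp2 at 14.3 and 16.4 against 17.5 and 17.5.

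Elongation factors carry the charged tRNA to the ribosome and move the ribosome on. Of 8 cytosolic genes 2 rose at 7 days, with a median of 0.29. Eef1a1, the general form of the tRNA carrier, was at 204 and 206 RPKM in the controls and 304 and 321 at 7 days (log2 difference 0.60; limma adjusted p = 0.00793). Eef1a2, its form in adult muscle, was at 304 and 306 RPKM in the controls and 352 and 372 at 7 days, and did not pass (limma adjusted p = 0.184). Eef1g rose at both times, by 0.43 and 0.54 (limma adjusted p = 0.0283 and 0.0318), and its 28 day call was lost when any 1 of the 6 libraries was left out. Of 10 mitochondrial translation factors 0 were called by limma at either time, with 0 at unadjusted p under 0.05 at 7 days and 2 lower at 28 days. Tufm, the mitochondrial tRNA carrier, was at 21.0 and 23.1 RPKM in the controls and 26.2 and 25.3 at 7 days (limma adjusted p = 0.249). Of 24 respiratory chain subunits 1, Ndufs1 of complex I, fell at 7 days (log2 difference -0.45; limma adjusted p = 0.049), and the median was -0.12. Of 9 regulators of mitochondrial biogenesis 1, the coactivator gene Ppargc1a, fell at 7 days (log2 difference -0.57; limma adjusted p = 0.0413). Leaving out any 1 of the 4 control and 7 day libraries ended both calls, with limma adjusted p up to 0.234 for Ndufs1 and 0.191 for Ppargc1a. Of 4 tested genes that edit tRNAs or finish their ends 0 were called by limma at 7 days, with 1 lower at unadjusted p under 0.05 and a median of -0.16. Another list held 12 genes of eIF2, its exchange factor eIF2B and the eIF2 kinases and phosphatase subunits. Of these 0 were called by limma at either time, with 2 higher at unadjusted p under 0.05 at each. Over all tested genes, 13.2% were called higher and 2.27% lower at 7 days, and 2.87% and 1.54% at 28 days. At unadjusted p under 0.05 the shares were 26.5% higher and 5.66% lower at 7 days, and 12.8% and 9.32% at 28 days.

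Other known ATF4 targets moved in part with the synthetases at 7 days. Of 21 listed genes 16 reached the mean for testing, and 4 of these rose, against 13.2% of all tested genes, with a median of 0.25. A gene raised in 1 group reaches that mean more easily, so these counts do not describe the whole list. Nupr1, a stress-induced nuclear protein, was at 8.60 and 10.6 RPKM in the controls and 25.2 and 26.6 at 7 days (limma adjusted p = 0.00154). Mthfd2, a mitochondrial folate enzyme, rose by 1.35, Aldh18a1, of proline synthesis, by 0.83, and Atf5, a related transcription factor, by 0.69. Mthfd2 was at 0.512 and 0.902 RPKM in the controls and 1.24 and 1.28 at 28 days. It reached the mean for testing only through the 7 day group. Atf4 itself was at 32.4 and 35.2 RPKM in the controls and 44.1 and 39.0 at 7 days (limma adjusted p = 0.107). ATF4 is known to be set mainly by translation, which RPKM do not measure. Asns, which makes asparagine, was at 0.638 and 1.14 RPKM in the controls and 1.53 and 2.35 at 7 days (limma adjusted p = 0.0958). Like Mthfd2, it reached the mean for testing only through the 7 day group. Ddit3, which encodes CHOP, was at 21.2 and 24.8 RPKM against 16.3 and 15.9, and Trib3 and Chac1 had log2 differences of 0.08 and -0.01. At 28 days Chac1, a glutathione-degrading enzyme, fell to 0.814 and 1.26 RPKM from 3.63 and 3.37 (limma adjusted p = 0.0246), and the other 15 tested targets were not called. At unadjusted p under 0.05 in limma, 7 of the 16 were higher and 2 lower at 28 days. Over all tested genes these shares were 12.8% and 9.32%. Libraries did not overlap and were higher in 10 and lower in 2, against 28.8% and 25.8%. The median was 0.17, against 0.01 for all tested genes. Leaving out 28 day replicate 1 or any 1 control ended the Chac1 call (limma adjusted p up to 0.183).

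Of 12 amino acid transporters 8 were tested and 3 rose at 7 days, against 13.2% of all tested genes. Slc7a5 and Slc3a2, which together form a transporter of large neutral amino acids, rose by 1.05 and 0.67, and Slc7a6, another partner of Slc3a2, by 0.47. Slc3a2 was at 9.17 and 10.9 RPKM in the controls, 15.1 and 17.4 at 7 days, and 13.8 and 15.2 at 28 days. The scaffold, elongation, ATF4 target and transporter lists held 10 calls at 7 days. Of these 5 remained after median ratio scaling, namely Eef1a1, Mthfd2, Nupr1, Slc3a2 and Slc7a5, and 1, Nupr1, remained without any single library. Mthfd2 was tested only through its 7 day level, as given above.

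**Figure D5:**
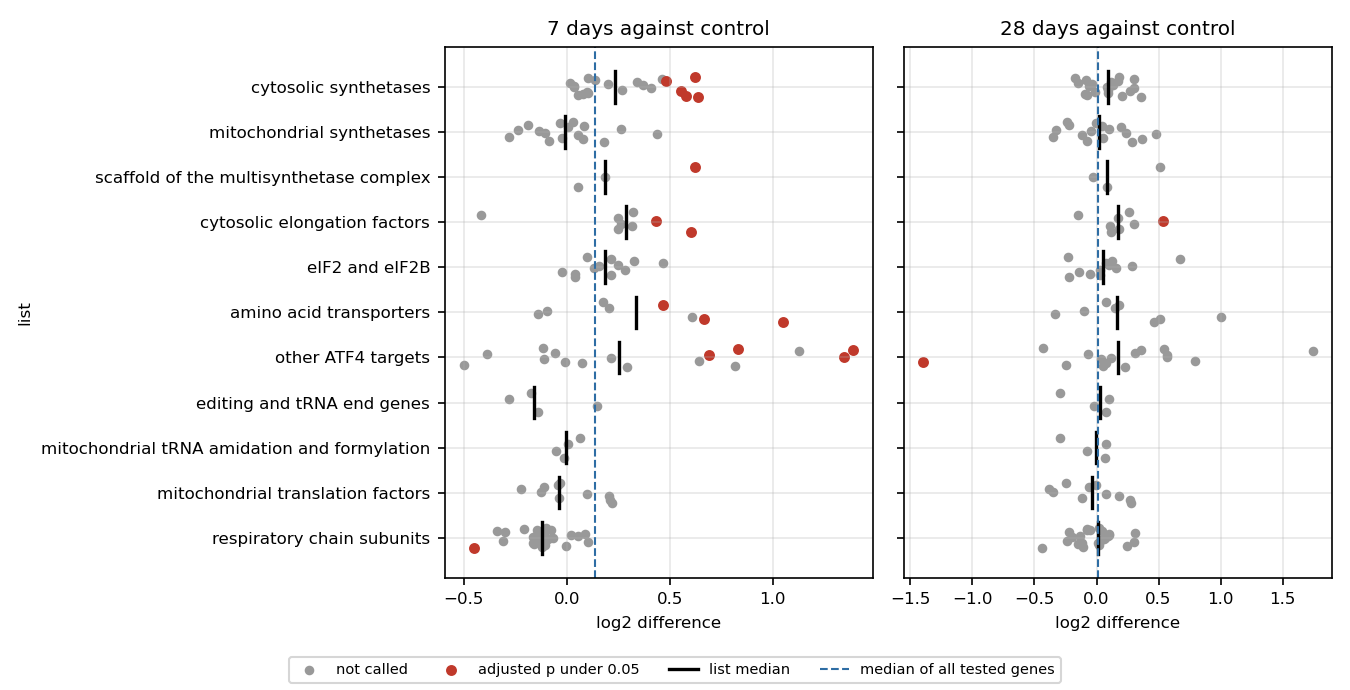
Log2 difference of each tested gene in the synthetase lists and 9 other lists at 7 and 28 days against control, with called genes in red, list medians as black bars and the median of all tested genes dashed. At 7 days the cytosolic synthetases, elongation factors, transporters and other ATF4 targets have medians of 0.23 to 0.34 and the mitochondrial synthetases and mitochondrial translation factors have medians of -0.01 and -0.04.

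Many markers of fibroblasts, macrophages, endothelial cells and smooth muscle were higher at 7 days. The median log2 differences of these 4 lists were 1.20, 0.80, 0.58 and 1.18. The cytosolic synthetases had a median of 0.23, and all tested genes 0.14. In that comparison 13.2% of all tested genes were called higher. Of 7 fibroblast markers 5 rose, and their summed level was 466 and 471 RPKM in the controls, 918 and 962 at 7 days, and 536 and 436 at 28 days. Of 8 macrophage markers 7 rose, with sums of 324 and 329 RPKM in the controls, 547 and 604 at 7 days, and 294 and 209 at 28 days. Of 6 endothelial markers 3 rose, with sums of 199 and 189 RPKM in the controls, 269 and 298 at 7 days, and 190 and 241 at 28 days. Of 4 smooth muscle markers 2 rose, with sums of 61.5 and 80.0 RPKM in the controls, 187 and 129 at 7 days, and 84.1 and 105 at 28 days. The 10 cell cycle genes had sums of 16.2 and 15.9 RPKM in the controls, 35.4 and 44.3 at 7 days, and 13.7 and 12.6 at 28 days. Mki67, Top2a, Ccna2, Birc5, Ube2c and Mcm5 among them were below 1 RPKM in every control and 28 day library and reached the mean for testing only through the 7 day group. No marker of the fibroblast, macrophage, endothelial or smooth muscle list was at 0 in all libraries. Of 7 cardiomyocyte markers 0 were called by limma at 7 days, with 1 each way at unadjusted p under 0.05. At that limit 26.5% of all tested genes were higher and 5.66% lower. The part of these cells in the synthetase differences was not tested, and in whole hearts more cells of a type and more RNA per cell cannot be told apart.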

How the data were processed

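The authors deposited 1 table of RPKM values, per the file headers, with 1 value per gene symbol and library. Tools named without a role in the submitters' processing notes are DESeq2, HTSeq, Bowtie 0.12.9 and TopHat2 2.0.12, and the builds are mm9 and mm8. The tool that made the RPKM values is not given in the sources used here. Promoter windows came from RefSeq on GRCm38.p6, another build, and were matched by symbol or gene ID.

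Values were used as deposited. Log2(RPKM + 0.5) of 11096 genes, those averaging 1 RPKM or more, was fitted in limma 3.58.1 (R 4.3.3) with group means of all 6 libraries, moderated variances and a mean-variance trend, on 3 residual and 4.21 prior degrees of freedom. Calls required p under 0.05 after Benjamini-Hochberg adjustment across the tested genes. The fit was tested on simulated data. Comparisons were 7 days and 28 days against control and 28 against 7 days. Relative depth was taken as the inverse of the most common ratio, over genes below 0.5 RPKM, to control replicate 1.

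The members, lists, motifs and tests were chosen with earlier results of these data known. Values and tests are given for members called in any comparison, the 2 highest and 2 lowest differences of each compartment at 7 and 28 days, and the 3 highest levels of each. From other lists, up to 4 called genes and 8 fixed genes are named. Alternatives were other pseudocounts, filters and scalings, a fit without the trend, a fit of 2 groups alone, a replicate block, the fold rule of the series' design text and each library left out. Replicate numbers were not taken as pairs. Python 3.11.15, pandas 2.3.3 and matplotlib 3.10.9 were used. Some results are not reported here.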

Additional observations from a re-analysis of the deposited data

How the results depend on the processing

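The 5 calls at 7 days were 5 with a pseudocount of 0.1 or 1 and without the trend, 4 without a filter on low values, and 6 with a mean RPKM of at least 5 or with only the 2 groups compared. Median ratio scaling left 2 and quantile normalization 2, each time Gars higher and Hars2 lower. They were 0 with an unadjusted p under 0.05 and a fold over 2, the rule of the series' design text, since the highest difference was 0.64 on the log2 scale. Leaving out 1 library gave between 0 and 6 calls. The lone library of a group was then assumed to vary like the other groups. Over all genes the higher share of the calls at 7 days was 85.3% with deposited values, 63.1% with median ratio scaling and 57.1% with quantiles. At 28 days and at 28 against 7 days, 0 members were called in every alternative run, including an unadjusted p under 0.05 with a fold over 1.5.

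The cytosolic minus mitochondrial difference of medians at 7 days was 0.24, and 0.17 with a mean RPKM of at least 5, where 6 low mitochondrial genes drop out. With 1 library left out it ranged from 0.20 to 0.29. At 28 days it was 0.07 and ranged from -0.039 without control replicate 1 to 0.14 without 28 day replicate 1. At 28 against 7 days it was -0.22 and kept its sign in every alternative run, from -0.23 to -0.18 with 1 library left out.

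With the replicate number as a block, 4 members were called at 7 days, Sars being lost (limma adjusted p = 0.0502), and 0 at the other comparisons. The differences between replicates 1 and 2 correlated at 0.15, -0.02 and -0.01 between the groups, so the numbers were not taken to pair the libraries. With 2 libraries a group, 1 library decided each of the 5 calls.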

Other observations

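Over the 6 libraries the log2 values of Lars2 ran most like those of Snora64, a small nucleolar RNA gene (r = 0.98 across 6 libraries, a description chosen after the values were seen). Snora64 was listed at 0 RPKM in both controls, 7 day replicate 1 and 28 day replicate 2, at 175 RPKM in 7 day replicate 2 and at 76.7 RPKM in 28 day replicate 1. Those are the 2 libraries in which Lars2 was high. Pde4dip, which encodes a large scaffold protein of the heart, was at 219 and 220 RPKM in the same libraries and between 177 and 190 RPKM in the other 4. The neutrophil markers S100a8 and S100a9, the only 2 tested of 5 listed, rose at 28 days, when no synthetase gene was called. Over all tested genes, 2.87% were called higher at 28 days. The 28 day libraries of S100a8 and S100a9 lay far apart, at 15.5 and 51.8 RPKM and at 15.2 and 64.35 RPKM. In the controls S100a8 was at 0.328 and 0.960 RPKM and S100a9 at 1.62 and 0 RPKM. At 7 days both genes were higher at unadjusted p under 0.05 in limma and not called (log2 differences 1.66 and 2.48). At that limit 26.5% of all tested genes were higher.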
